A study of Mus musculus with 9 samples.

Results

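The Schlafen family comprises genes whose symbols consist of Slfn and a number. Of 1710 genes in the deposited expression table, 7 were members: Slfn5, Slfn9, Slfn8, Slfn2, Slfn1, Slfn4 and Slfn3, of 8 such genes in the GENCODE M21 annotation. They were identified by gene ID, since the symbol column of the table carries a Slfn symbol for 3 of them (Slfn5, Slfn8 and Slfn9) and names the other 4 after human relatives, SLFN12 for Slfn1 and SLFN12L for Slfn2, Slfn3 and Slfn4. Slfn14 was not analysed here.

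The RNA came from wild-type mouse brain tissue labelled "brain ctx", the centre of the injected area, 10 days after a stereotaxic injection. There were 3 libraries each of the groups PBS (a buffered salt solution), LowDose and HighDose. According to the series title and design text, the injected agent was adeno-associated virus (AAV, serotype AAV9), a small DNA virus used as a gene carrier, and the study concerns innate immunity through the DNA sensor cGAS and its partner STING. The amounts given, the cargo of the vector and the age of the mice were not used here. No source used here says whether each library is a different animal. The p-values therefore measure the spread between these libraries, which may be technical.

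Library totals lay between 18.3 and 23.7 M counts, and the listed genes held 3.90% to 6.04% of the counts in HighDose, 1.34% to 1.38% in LowDose and 1.54% to 1.61% in PBS. For every listed gene, the mean FPKM of some 2 groups stood 2-fold or more apart. A member thus entered the table through such a difference, and 1581 of the 1710 genes had it between HighDose and PBS. Tests of HighDose therefore repeat part of that choice and describe the members rather than support them. Of the markers listed for neurons and cortex, 0 of 9 were in the table, so the labelled tissue could not be checked with them. Of 12 striatal markers 12 were in the table. Their summed levels were 370.2 to 434 CPM in HighDose, 374 to 907 CPM in LowDose and 1073 to 1598 CPM in PBS. CPM is the count scaled per M of the library total. Against PBS, 12 of 12 were called lower in HighDose and 10 of 12 in LowDose (edgeR). Of all 1583 tested genes, 169 were called lower in HighDose and 34 (2.15%) in LowDose.

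Schlafen proteins share an N-terminal Schlafen core domain, and the long members also carry a helicase-like domain at the C-terminal end. Several family members from human and rat cut or bind transfer RNA and so limit translation, and family genes are known targets of type I interferon. In mice the genes are best studied in T cells and in monocytes and macrophages, where they have been linked to restraint of growth and to differentiation.

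The 7 genes lay in 1 cluster of 263.8 kb on chromosome 11 (mm10, GENCODE M21), at 82951349 to 83215154. From the low to the high coordinate it held Slfn5 (82951349 to 82964840, plus strand), Slfn9 (82978390 to 82991830, minus strand), Slfn8 (83002158 to 83020810, minus strand), Slfn2 (83065112 to 83070678, plus strand), Slfn1 (83116849 to 83122670, plus strand), Slfn4 (83175186 to 83190216, plus strand) and Slfn3 (83191330 to 83215154, plus strand). By the longest annotated coding sequence, Slfn1 and Slfn2 were short, with 337 and 378 codons. Slfn4 and Slfn3 were intermediate, with 602 and 640 codons, and Slfn5, Slfn9 and Slfn8 were long, with 884, 910 and 910 codons. Coding sequences of Slfn8 and Slfn9 were 92.7% identical over 2730 aligned bases, and those of Slfn4 and Slfn3 were 92.3% identical over 1785. The other 19 pairs lay between 57.6% and 75.3%.

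Promoter windows of the genes, from RefSeq on GRCm38.p6, covered 250 bases before and 50 after the start, and 7 of 7 members matched by symbol. Both strands were searched for the core of the interferon-stimulated response element (GAAA, any 2 bases, GAAA), where interferon-activated factors can bind, and for the gamma-activated sequence (TTC, any 3 bases, GAA). The first motif was present in Slfn5 at -155 to -146, in Slfn9 at -45 to -36 and in Slfn8 at -48 to -39 relative to the RefSeq start, in Slfn9 and Slfn8 on the strand opposite to the gene. From another RefSeq start of Slfn8 the same stretch lies at -136 to -127. The Slfn5 window begins at 82951852, inside the GENCODE gene, which starts at 82951349. The first motif was found in 3 of 7 member genes, and in 3.99% of 27025 genes (3.44% of 32851 windows). The second was found in 0 members and in 9.55% of genes. These letters describe the windows and say nothing of binding. The 250 bases before the start are shown for the 3 genes with the motif, and for Slfn4 and Slfn3, the other pair with near-identical coding sequences. They lie at chr11:82951852-82952101 (plus strand), chr11:82991831-82992080 (minus strand), chr11:83020811-83021060 (minus strand), chr11:83174936-83175185 (plus strand) and chr11:83191080-83191329 (plus strand), with capitals marking the response element core.
Slfn5: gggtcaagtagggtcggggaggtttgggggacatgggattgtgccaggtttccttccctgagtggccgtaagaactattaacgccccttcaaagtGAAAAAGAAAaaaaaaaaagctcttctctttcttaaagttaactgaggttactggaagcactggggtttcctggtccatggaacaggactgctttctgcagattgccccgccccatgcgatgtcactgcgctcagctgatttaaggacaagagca
Slfn9: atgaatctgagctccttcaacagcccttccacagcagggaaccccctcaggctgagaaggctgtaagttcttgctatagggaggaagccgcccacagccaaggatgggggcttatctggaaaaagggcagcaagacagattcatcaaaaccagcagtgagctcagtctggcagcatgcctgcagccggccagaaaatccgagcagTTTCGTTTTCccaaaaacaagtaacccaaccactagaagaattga
Slfn8: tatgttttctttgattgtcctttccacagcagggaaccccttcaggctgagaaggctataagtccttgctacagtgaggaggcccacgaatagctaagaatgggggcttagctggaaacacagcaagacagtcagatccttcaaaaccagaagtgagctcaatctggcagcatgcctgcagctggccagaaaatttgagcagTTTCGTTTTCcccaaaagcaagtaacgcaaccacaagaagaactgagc
Slfn4: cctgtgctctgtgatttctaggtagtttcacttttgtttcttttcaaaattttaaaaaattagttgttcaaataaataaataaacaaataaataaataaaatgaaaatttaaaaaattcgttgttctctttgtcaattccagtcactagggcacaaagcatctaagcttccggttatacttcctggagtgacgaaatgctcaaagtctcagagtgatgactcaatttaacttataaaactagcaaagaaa
Slfn3: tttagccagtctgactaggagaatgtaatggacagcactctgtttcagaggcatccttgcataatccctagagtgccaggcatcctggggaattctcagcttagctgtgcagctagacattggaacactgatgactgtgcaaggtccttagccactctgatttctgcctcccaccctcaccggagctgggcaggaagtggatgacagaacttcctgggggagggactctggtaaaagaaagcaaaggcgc

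The Slfn8 and Slfn9 windows, of 300 bases each, were 84.9% identical over 292 aligned bases, and both carry the motif in the same letters. The other 20 pairs of windows reached 51.9% to 67.8% in the same alignment, among them Slfn4 and Slfn3 at 55.0% over 231 bases. Of the 50-base words in the transcripts of Slfn3, 16.0% also occurred in transcripts of another gene, chiefly Slfn4, against 14.6% for Slfn8 and 11.9% for Slfn9 (chiefly the pseudogene Slfn10-ps and each other), 11.3% for Slfn4, 11.1% for Slfn5, 4.27% for Slfn2 and 0.606% for Slfn1. Counts were not whole in 9 libraries for Slfn5 and in 3 for Slfn8 and Slfn9 (all HighDose). The values of members that share stretches are uncertain by an amount that was not measured, also where the counts are whole. No source used here states whether the counting used strand, and Slfn5 overlaps its antisense gene Slfn5os, whose reads cannot then be told apart.

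All 7 Schlafen genes were higher in HighDose than in PBS, with ratios of scaled counts from 7.86 for Slfn3 (95% counting interval 5.34 to 11.98) to 643 for Slfn4 (326 to 1489) and 647 for Slfn1, the last 2 poorly fixed at low PBS counts. In LowDose none of the 7 passed the test against PBS. The lowest HighDose library lay above the highest PBS library for 7 of 7 genes, a pattern that 85.8% of the 1583 tested genes shared. At an adjusted p under 0.05 (edgeR quasi-likelihood test, Benjamini-Hochberg adjustment over all tested genes), 7 of 7 were called higher, against 86.3% of all tested genes. The count alone is thus near the background of a table chosen for differences. The median log2 change was 6.16 for the members and 1.90 for all tested genes. Over all tested genes 1366 were called higher and 169 lower with library totals as scaling, against 600 higher and 464 lower under TMM scaling within the listed genes. TMM moved the median of all genes to 0.19 and that of the members to 4.42, with 7 of 7 members still called higher.

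**Figure D1:**
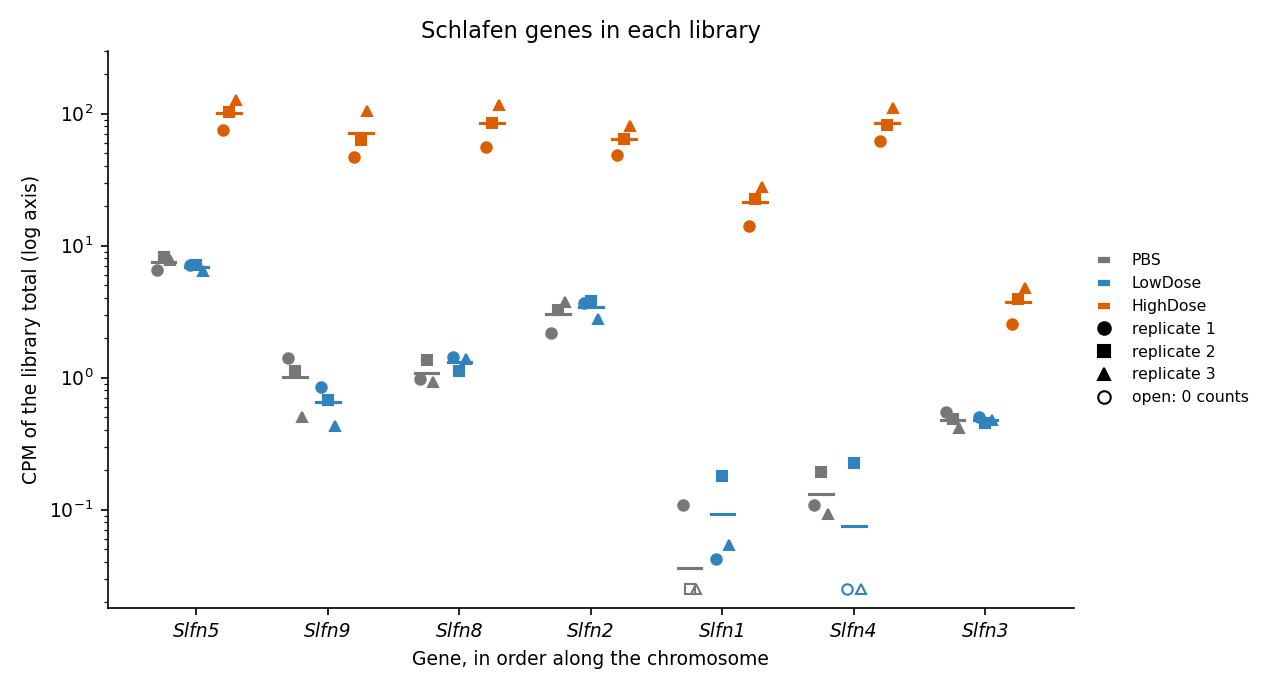
Level of each Schlafen gene in each library, in CPM on a log axis, with 1 symbol per replicate, a bar at the group mean, and libraries with 0 counts drawn as open symbols at the bottom. In each of the 7 genes the HighDose libraries stand above the PBS and LowDose libraries, which overlap each other.

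Among the long members, Slfn5, a nuclear protein whose human counterpart restricts herpesvirus transcription, had 74.7, 102 and 126 CPM in HighDose replicates 1 to 3, against 6.499, 8.22 and 7.78 CPM in PBS. It thus had the highest CPM of the family in PBS and still rose 13.4-fold, by 3.75 ± 0.24 on the log2 scale (SE, adjusted p = 4.65e-18, edgeR). Slfn8, a long member with the helicase-like part, had 55.7, 85.5 and 116 CPM in HighDose, against 0.981, 1.36 and 0.922 CPM in PBS. Its log2 change was 6.29 ± 0.31 (adjusted p = 2.23e-22, edgeR). Its near copy Slfn9 had 47.3, 63.4 and 105 CPM in HighDose, against 1.42, 1.11 and 0.507 CPM in PBS. The log2 change of Slfn9 was 6.16 ± 0.33 (adjusted p = 8.18e-21, edgeR), which differed from that of Slfn8 by less than either SE. With the counts of both genes summed into 1 feature, the log2 change was 6.23 (adjusted p = 1.86e-22, edgeR).

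Of the short members, Slfn2 is required in mice to keep T cells in a resting state and protects transfer RNA from cleavage under oxidative stress. It had 48.3, 64.6 and 81.0 CPM in HighDose, against 2.18, 3.24 and 3.73 CPM in PBS, and rose by 4.39 ± 0.27 on the log2 scale (adjusted p = 5.40e-19, edgeR). Slfn1, which restrains growth when expressed in mouse T cells, had 321, 468 and 637 counts in the HighDose libraries, against 2, 0 and 0 counts in PBS. Over the groups this was a ratio of 647, with a 95% counting interval of 179 to 5350 (exact binomial, counting error only). The PBS counts are under the floor of 3 counts taken as detectable, so the size of this ratio is poorly fixed. The HighDose level was 21.3 ± 6.84 CPM (SD, n = 3).

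Slfn4 and Slfn3, the intermediate members with near-identical coding sequences, had unlike levels in HighDose, with 84.5 ± 24.6 CPM for Slfn4 and 3.76 ± 1.15 CPM for Slfn3 (SD, n = 3). Slfn4, a marker of activated monocytes and macrophages in mice, had 61.6, 81.4 and 111 CPM in HighDose, against 0.109, 0.194 and 0.0922 CPM in PBS, where the 3 libraries held 2, 4 and 2 counts. Its log2 change was 9.26 ± 0.42 (adjusted p = 2.63e-23, edgeR). With 2 of the 3 PBS libraries under the floor of 3 counts its size, like that of Slfn1, is poorly fixed. No PBS or LowDose library held more than 5 counts of Slfn4, so it passed the filter for low counts only through HighDose. Slfn3, studied mainly in T cells and gut epithelium of rodents, had 2.54, 3.92 and 4.81 CPM in HighDose, against 0.545, 0.484 and 0.415 CPM in PBS, a log2 change of 2.95 ± 0.43 (adjusted p = 5.27e-08, edgeR). Part of the Slfn3 transcript matches Slfn4, and how many Slfn3 counts in HighDose came from Slfn4 reads was not tested. The Slfn3 counts were whole in all 9 libraries, which does not tell how reads from shared stretches were assigned.

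**Figure D2:**
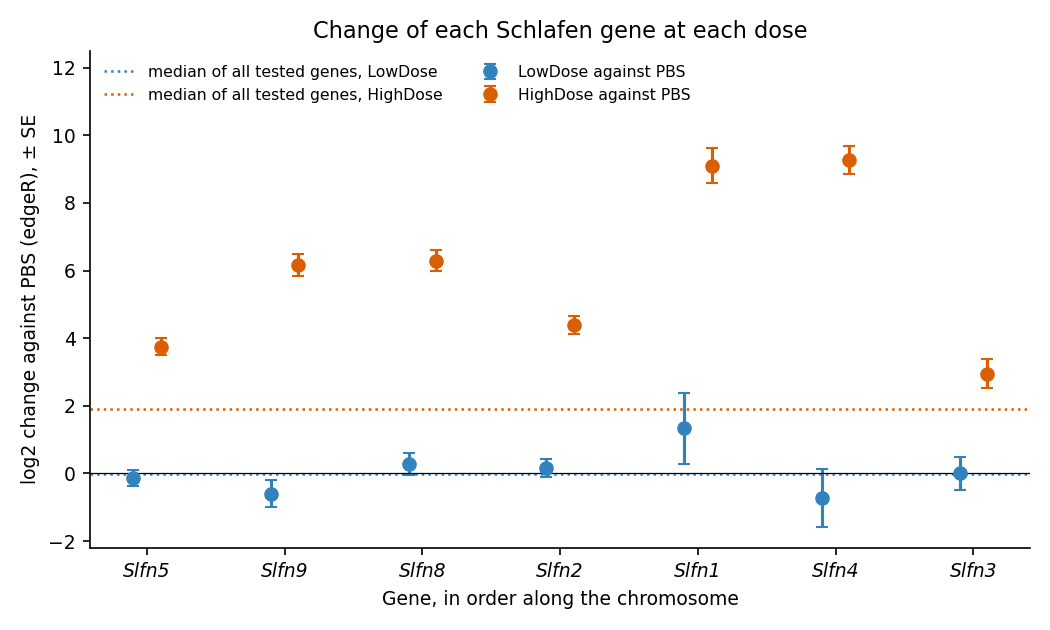
Log2 change of each Schlafen gene against PBS in LowDose and HighDose, with SE bars (edgeR), and dotted lines at the median of all 1583 tested genes in each comparison. The HighDose values run from 2.95 for Slfn3 to 9.26 for Slfn4, above the median of 1.90, while the LowDose values scatter about 0. The fitted values of Slfn1 rest on 2 counts in PBS.

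In LowDose no Schlafen gene was told apart from PBS. Of the 7 members 0 were called higher and 0 lower (edgeR, with 0 at an unadjusted p under 0.05 and 0 by DESeq2), against 0.442% and 2.15% of all tested genes. The count alone is thus near the background. The median log2 change was -0.0017 for the members and -0.028 for all tested genes. With the replicate number as a block, 12 of all tested genes were higher in place of 7 and 50 lower in place of 34, and 0 of 7 members were called. For 7 of 7 genes the LowDose and PBS libraries overlapped. Most tested genes overlapped too, with every LowDose library above PBS in 6.63% of them and below PBS in 13.1%. Slfn5 had 7.11, 7.09 and 6.38 CPM in LowDose, against 6.499, 8.22 and 7.78 CPM in PBS (log2 change -0.13 ± 0.23, adjusted p = 0.922, edgeR). Its ratio of 0.914 had a counting interval of 0.800 to 1.04, which covers counting error and not the spread of the libraries. Slfn2 had 3.67, 3.78 and 2.78 CPM in LowDose, against 2.18, 3.24 and 3.73 CPM in PBS (0.16 ± 0.26, adjusted p = 0.910, edgeR). These 2 genes carried most of the family's counts outside HighDose.

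The remaining members were scarce in LowDose. Slfn8 had 1.43, 1.12 and 1.39 CPM in LowDose, against 0.981, 1.36 and 0.922 CPM in PBS, with a log2 change of 0.27 ± 0.32. Slfn9 had 0.843, 0.674 and 0.427 CPM in LowDose, against 1.42, 1.11 and 0.507 CPM in PBS, with a log2 change of -0.60 ± 0.39. Their adjusted p were 0.876 and 0.646 (edgeR), and the signs of the 2 near copies were opposite. Slfn3 had 12, 10 and 9 counts in LowDose, against 10, 10 and 9 in PBS, a ratio of 1.003 with a counting interval of 0.585 to 1.72. Slfn1 had 1, 4 and 1 counts in LowDose, against 2, 0 and 0 in PBS, and Slfn4 had 0, 5 and 0 counts in LowDose, against 2, 4 and 2 in PBS. For Slfn1 the ratio of 2.81 had a counting interval of 0.503 to 28.5, and for Slfn4 the ratio of 0.586 had one of 0.151 to 2.03, so that changes of this size were not detectable at this depth.

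Between the doses, 7 of 7 genes were called higher in HighDose than in LowDose (edgeR), as were 88.1% of all tested genes, and for 7 of 7 the libraries did not overlap, as for 86.5% of all tested genes. The log2 changes ran from 2.96 ± 0.43 for Slfn3 to 9.99 ± 0.44 for Slfn4. Slfn5 had 3.88 ± 0.25, Slfn2 4.24 ± 0.27, Slfn8 6.02 ± 0.30, Slfn9 6.76 ± 0.35 and Slfn1 7.76 ± 0.46. The values of Slfn4 and Slfn1 rest on 5 and 6 LowDose counts, most of them in LowDose replicate 2, and became 13.8 for Slfn4 and 8.65 for Slfn1 without that library. The members had a median of 6.02 and all tested genes one of 1.88. The comparisons of each dose with PBS share the PBS libraries.

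Per length of transcript, as the deposited FPKM give it, the order of the members differed between the groups. In HighDose, Slfn2 was highest at 38.8 ± 9.85 FPKM (SD, n = 3 each). Slfn8 (23.0 ± 8.55 FPKM), Slfn4 (22.3 ± 6.48 FPKM) and Slfn5 (22.0 ± 4.80 FPKM) followed, overlapping each other. Within each library Slfn2 lay above each of them, with 29.0, 38.8 and 48.7 FPKM against 14.7, 22.6 and 31.8 FPKM for Slfn8. Only across libraries did the lowest Slfn2 value (29.0 FPKM) lie below the highest Slfn8 value (31.8 FPKM). Slfn9 (13.4 ± 5.51 FPKM) and Slfn1 (11.4 ± 3.67 FPKM) overlapped each other. Across libraries the highest Slfn9 value (19.5 FPKM) also overlapped Slfn8, Slfn4 and Slfn5, and the highest Slfn1 value (14.8 FPKM) overlapped Slfn8. Within each library Slfn9 and Slfn1 lay below Slfn8, Slfn4 and Slfn5. Slfn3 was lowest at 1.96 ± 0.54 FPKM. In PBS, Slfn2 (1.83 ± 0.48 FPKM) and Slfn5 (1.55 ± 0.32 FPKM) were at the top and overlapped across libraries. Within each library Slfn2 was the higher, with 1.31, 1.95 and 2.24 FPKM against 1.22, 1.86 and 1.56 FPKM for Slfn5. Slfn8 (0.357 ± 0.15 FPKM), Slfn3 (0.253 ± 0.025 FPKM) and Slfn9 (0.177 ± 0.081 FPKM) formed a middle group. Its neighbours overlapped across libraries but kept this order within each library. Slfn4 (0.0467 ± 0.029 FPKM) and Slfn1 (0.0200 ± 0.035 FPKM) were lowest. LowDose kept Slfn2 (2.05 ± 0.33 FPKM) and Slfn5 (1.43 ± 0.22 FPKM) at the top and Slfn1 and Slfn4 at the bottom.

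The summed FPKM of the 7 genes was 94.6, 131 and 173 in HighDose replicates 1 to 3, against 3.46, 4.85 and 4.39 in PBS. LowDose had 4.47, 4.82 and 3.68, which overlaps PBS. The make-up of this sum does not depend on how libraries are scaled. Slfn5 made up 16.8% ± 1.31 in HighDose and 36.4% ± 1.71 in PBS (SD, n = 3 each). Slfn2 had 29.5% ± 1.25 in HighDose and 43.0% ± 7.02 in PBS, and Slfn3 had 1.48% ± 0.078 in HighDose and 6.16% ± 1.67 in PBS. Slfn4 made up 16.8% ± 0.35 in HighDose and 1.07% ± 0.51 in PBS. Slfn1 had 8.56% ± 0.59 in HighDose and 0.578% ± 1.001 in PBS, Slfn8 had 17.0% ± 1.42 in HighDose and 8.38% ± 2.67 in PBS, and Slfn9 had 9.90% ± 1.21 in HighDose and 4.398% ± 2.62 in PBS. The HighDose and PBS libraries did not overlap in the share of any of the 7 genes (two-sided exact permutation test, p = 0.1 each, the smallest that 3 against 3 libraries allow, adjusted p = 0.175 over 14 tests). The shares of a library add up to the whole, so larger shares of some genes force smaller shares of others. The 7 results are thus not separate observations. With shares of summed CPM, which weigh long transcripts more, none of these differences changed sign, but their sizes moved. The HighDose minus PBS difference became -32.7 in place of -19.6 percentage points for Slfn5, -7.69 in place of -13.6 for Slfn2, 8.52 in place of 5.50 for Slfn9, 4.61 in place of 7.98 for Slfn1 and -2.80 in place of -4.68 for Slfn3. In LowDose against PBS, Slfn5 stood at 33.0% ± 1.23 in LowDose and 36.4% ± 1.71 in PBS (exact permutation p = 0.1, and p = 0.2 with CPM), and the other 6 genes had p from 0.3 to 0.9.

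**Figure D3:**
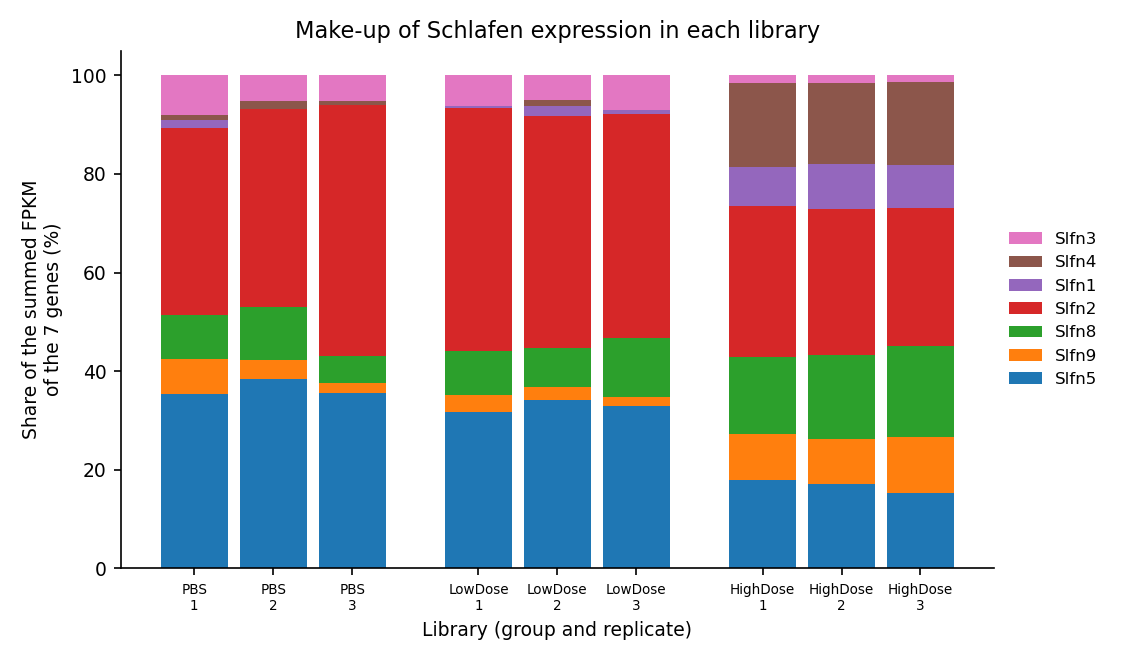
Share of each Schlafen gene in the summed FPKM of the 7 genes, in percent, as stacked bars for each library. Slfn5 and Slfn2 make up most of the bar in the PBS and LowDose libraries, and Slfn4, Slfn8, Slfn1 and Slfn9 take larger shares in the 3 HighDose libraries.

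Within HighDose, replicate 1 was lowest and replicate 3 highest in each of the 7 genes. Of the 1366 genes called higher in HighDose against PBS, 69.8% had that same order. The ratio of replicate 3 to replicate 1 ran from 1.68 for Slfn2 and 1.69 for Slfn5 to 2.08 for Slfn8 and 2.22 for Slfn9, with a median of 1.58 over the called genes. The summed markers of T cells, monocytes and B cells, Csf3r, the astrocyte gene Gfap and both interferon lists described further on had the same order. T cell markers (12 of 14 in the table) summed to 24.0, 43.1 and 49.5 CPM in HighDose replicates 1 to 3, against 2.08 to 2.997 CPM in PBS and with Cd3d at 0 counts there. Monocyte markers (7 of 10 in the table) summed to 144, 216 and 250.3 CPM in HighDose, against 2.72 to 3.65 CPM in PBS. In LowDose the T cell markers summed to 2.36 to 3.51 CPM and the monocyte markers to 3.33 to 4.72 CPM. Microglia markers (5 of 10 in the table) summed to 95.1 to 99.0 CPM in HighDose and 98.4 to 122.9 CPM in PBS, with 2 of 5 called higher and 3 lower. Under each of the 3 scalings within the listed genes 1 was called higher and 4 lower, since Tmem119 turned from a log2 change of 1.05 to -0.63 under TMM (adjusted p = 0.00391, edgeR). B cell markers (5 of 6) summed to 3.59, 7.56 and 8.54 CPM in HighDose, against 0.709 to 1.11 CPM in PBS. Of the neutrophil list 1 of 10, Csf3r, was in the table, at 11.8, 16.4 and 19.0 CPM in HighDose, against 4.47 to 6.25 CPM in PBS, and its log2 change of 1.56 became -0.16 under TMM. Of the astrocyte list 1 of 7, Gfap, was in the table, at 374, 453 and 534 CPM in HighDose, against 113 to 146 CPM in PBS, with a log2 change of 1.85 that became 0.14 under TMM. The part of these cells in the Schlafen values was not tested, and in bulk tissue a change in the number of cells of a type and a change in RNA per cell cannot be told apart.

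The deposited counts and FPKM together give the mean transcript length that the authors' estimates imply for each gene. For Slfn2, with 1 annotated transcript of 1664 bases, it was 1664 bases in each HighDose library. Slfn4, with transcripts of 1830 to 3958 bases, had 3808, 3773 and 3800 bases in HighDose, and Slfn8, with transcripts of 1252 to 4011 bases, had 3787, 3787 and 3643 bases. Both were thus near the long end of their annotated range in HighDose. In PBS, Slfn8 had 3165, 2608 and 3842 bases and Slfn4 had 3634, 2421 and 3074 bases. In PBS replicate 2 rounding allows 2583 to 2633 bases for Slfn8 and 2279 to 2583 bases for Slfn4. These PBS values rest on 66 counts of Slfn8 and 8 of Slfn4 over the group. Slfn5 (longest transcript 5979 bases) had 4401 to 4745 bases in HighDose and 4419 to 5327 bases in PBS, which overlap. Slfn9 (longest transcript 5769 bases) had 5293 to 5380 bases in HighDose and 5635 to 5862 bases in PBS. Rounding of the FPKM to 2 decimals alone allows values down to 5339 in PBS replicate 3. In PBS replicates 1 and 2 it allows values down to 5558 and 5712. The PBS values of Slfn9 rest on 60 counts over the group.

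Genes of the interferon pathway were higher in HighDose as well. That pathway is known to drive Schlafen genes, but its part in the Schlafen values here was not tested. Of a list of 14 signalling genes 9 were in the table and 8 were tested. In HighDose against PBS 8 of 8 were called higher, as were 86.3% of all tested genes (edgeR, median log2 change 4.41, against 1.90). The highest were Usp18, a feedback inhibitor of the interferon receptor, at 7.06 ± 0.31, and Irf7, a transcription factor of interferon genes, at 6.19 ± 0.29. The lowest were Irf9, a DNA-binding partner of Stat2, at 3.86 ± 0.25, Stat2 at 3.70 ± 0.24 and the receptor chain Ifnar2 at 0.98 ± 0.22. Ifnar2 turned to -0.71 (adjusted p = 0.000190, edgeR) under TMM scaling within the listed genes. Ifnb1, which encodes interferon beta, was not tested for low counts, with 57 counts over the HighDose libraries and 0 over PBS, at least 17.2-fold higher when PBS is set at 3 counts over the group.

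Other interferon effectors that cut RNA or restrict translation, as Schlafen proteins can, were listed as 19 genes, of which 18 were tested. In HighDose against PBS 18 of 18 were called higher, as were 86.3% of all tested genes (edgeR, median log2 change 6.34, against 1.90). Under each of 3 scalings within the listed genes 15 of 18 were called higher. Oas3 (8.59 ± 0.38), Oas1g (7.53 ± 0.50) and Oasl1 (7.498 ± 0.35), members of the oligoadenylate synthetase family, were highest. Oas3 and Oas1g had 8 and 6 counts over the PBS libraries, so the sizes of their changes are poorly fixed. Zc3h12a, an mRNA-cutting enzyme (2.18 ± 0.43), and Oas1c (1.83 ± 0.36) were among the lowest, and both lost their call under TMM. In LowDose against PBS, 0 of 8 and 0 of 18 genes of the 2 lists were called in either direction (edgeR), with medians of 0.03 and 0.06. Of all tested genes 0.442% were called higher and 2.15% lower there, so these counts are near the background.

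Within 1 Mb of the cluster the table held 11 other genes of 93 annotated there, and all 11 were higher in HighDose than in PBS (edgeR, median log2 change 5.90), where 86.3% of all tested genes were called higher too. On the low-coordinate side these were the chemokine genes Ccl2, Ccl7, Ccl11, Ccl12 and Ccl8, and on the high-coordinate side Heatr9, the chemokine genes Ccl5, Ccl9, Ccl3 and Ccl4, and Wfdc17. Ccl5, a chemokine for T cells, had 36.7 ± 12.2 CPM in HighDose and 0.105 ± 0.11 CPM in PBS (log2 change 8.45 ± 0.43, SD for CPM and n = 3 each). Ccl12, a chemokine for monocytes, had 26.4 ± 2.89 CPM in HighDose and 0.112 ± 0.066 CPM in PBS (7.77 ± 0.39). Ccl5 and Ccl12 had 6 and 7 counts over the PBS libraries, so the sizes of their changes are poorly fixed. Ccl9, with 1.85 ± 0.33, and Ccl8, with 2.29 ± 0.59, had the smallest log2 changes, and their calls were lost under each of the 3 scalings within the listed genes. None of the 11 was called in LowDose against PBS (edgeR), where 0.442% of all tested genes were called higher and 2.15% lower. Heatr9 had 0 counts in both groups. Ccl2 (9 counts in LowDose and 2 in PBS), Ccl4 (7 and 5) and Ccl11 (6 and 5) were scarce in both. For such genes a LowDose change was hardly detectable at this depth. No listed gene that lay within the window fell in HighDose, and genes of the window outside the table were not analysed here.

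**Figure D4:**
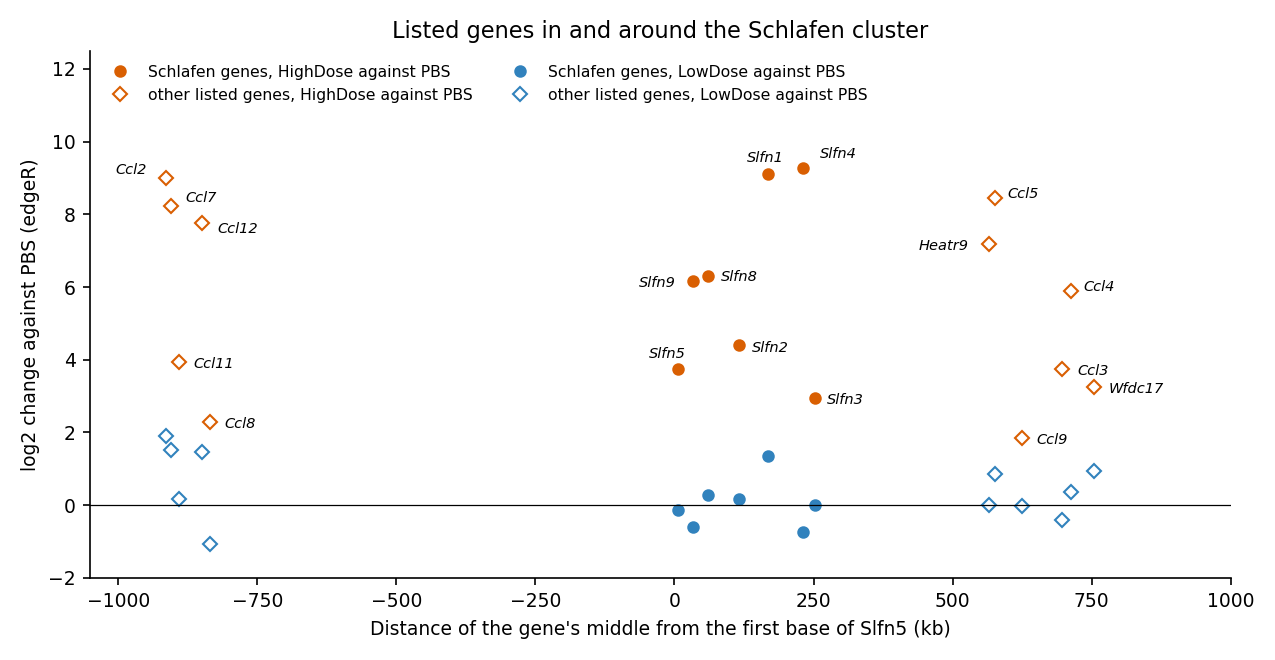
Log2 change against PBS (edgeR) of the 7 Schlafen genes and of the 11 other listed genes within 1 Mb, by distance of the middle of each gene from the first base of Slfn5, in kb. The HighDose values run upward from 1.85 at Ccl9, and the LowDose values lie between -1.06 at Ccl8 and 1.91 at Ccl2. Fitted values of Ccl2 and Slfn1, with 2 counts in PBS, and of Heatr9, with 0, depend on the prior count. Other values rest on few PBS counts too, among them Ccl7 with 4, Ccl5 with 6, Ccl12 with 7 and Slfn4 with 8.

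The profiles nearest to those of the members over the 9 libraries were measured as the root mean square difference of log2(CPM + 0.5) after centring on the PBS mean, among 1241 candidate genes. For Slfn4 they were Zbp1, a nucleic acid sensor (0.197), and Ly6c2, a monocyte surface protein (0.201). For Slfn8 they were Ifit2 (0.195) and Bst2 (0.214), antiviral effectors, and for Slfn9 the guanylate-binding proteins Gbp5 (0.247) and Gbp4 (0.285). Slfn2 lay nearest Ms4a6b (0.148) and the antiviral RNA-binding protein Zc3hav1 (0.185). Slfn1 lay nearest Ifi208 (0.114) and H2-Q4 (0.132), Slfn5 nearest Gbp8 (0.121) and Fgr (0.128), and Slfn3 nearest Pnpt1 (0.114) and Lyn (0.127). The pseudocount flattens low genes, so that Gbp8, at 0.0469 CPM in PBS, lies near Slfn5, at 7.498 CPM. With pseudocounts of 0.1 or 2 CPM, 3 and 1 of these 14 pairings were found again.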

How the data were processed

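Estimated counts per gene and FPKM values (counts per kilobase of transcript and M of the library total) were deposited by the authors for each of 9 libraries, per the file headers. Per the submitters' processing notes, mm10, edgeR and DESeq2 were used, with no role named. The aligner and counter are not given in the sources, and no rule for the listed genes is stated there. Counts were rounded, since 7.66% to 14.0% per library were not whole.

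Of 1710 gene IDs, 1704 matched GENCODE M21. Library totals were recovered as the median of count over FPKM and transcript length in 23 to 68 genes with 1 transcript (FPKM of at least 5, at least 100 counts, at least 600 bases). A floor of 3 counts corresponds to 0.126 to 0.164 CPM. After filterByExpr (minimum count 10), the groups were compared in 1 quasi-likelihood model of edgeR 4.0.16 (R 4.3.3), with library totals as scaling. SE was taken as the absolute log2 change divided by the root of F. Alternatives were other scalings, filters, DESeq2 1.42.0, fewer libraries and a replicate block. Members, lists and the rule for named genes (all members, list extremes, neighbours, nearest profiles) were chosen with earlier results of these data known, and Slfn3 was added to 6 named members after the gene IDs were read. Coding and promoter sequences were aligned with Biopython 1.88, coding bases in place of the planned proteins, a choice made after seeing the data. The fit was checked on simulated counts. Some genes of the lists are not reported here by name. Deviations of same-numbered libraries correlated at 0.246, 0.165 and 0.137 between PBS and LowDose, so a replicate block is given for that comparison. With HighDose they correlated at over 0.1 in 2 of 6 pairs, and the numbers were not taken as pairs.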

Additional observations from a re-analysis of the deposited data

How the results depend on the processing

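Under each of the alternatives run, 7 of 7 Schlafen genes were called higher in HighDose against PBS and against LowDose, and none of the members tested was called in LowDose against PBS, where Slfn1 and Slfn4 were not tested with only the 2 groups compared. In HighDose against PBS the smallest log2 changes were 2.03 for Slfn5 and 1.23 for Slfn3. Counts over all genes moved with the scaling. HighDose against PBS had 600 higher and 464 lower with TMM, 605 and 457 with DESeq2 size factors, and 607 and 454 with the listed sum. HighDose against LowDose had 565 higher and 461 lower, 573 and 448, and 524 and 524 under the same 3 scalings. LowDose against PBS, with 7 higher and 34 lower, had 3 and 3 with TMM, 3 and 3 with DESeq2 size factors, 2 lower with the listed sum and 11 higher with only the 2 groups compared. Leaving out 1 library gave 5 to 22 higher and 18 to 57 lower, and the cause of these moves was not tested. The 3 scalings take their factors from the listed genes alone, which held more of the counts in HighDose than in PBS. They moved the median log2 change of all tested genes in HighDose against PBS from 1.90 to between 0.19 and 0.22. Calls lost or turned under them are to be read with that shift.

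Uncalled LowDose log2 changes turned sign for Slfn3 (0.046 with TMM, 0.036 with DESeq2 size factors, 0.21 with the listed sum, -0.10 to 0.092 without 1 library), Slfn5 (0.081 with the listed sum), Slfn2 (-0.031 to 0.33 without 1 library) and Slfn8 (-0.086 summed with Slfn9). The LowDose minus PBS share of Slfn8 was -0.24 to 2.38 percentage points without 1 library. That of Slfn3 was -0.56 to 0.91, and 0.073 with CPM. The nearest profiles shared 3 pairings at a pseudocount of 0.1 CPM and 1 at 2 CPM.

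The replicate block is described with the processing. With it, LowDose against PBS had 12 genes higher and 50 lower, and Slfn3 at 0.0076. It changed no call of a member.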
